A study of Mus musculus with 6 samples.

Results

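Expression of 10 macrophage polarization markers was compared between WT and Gpr174-/Y mice in muscle after ischemia. The markers were chosen by name, from textbook macrophage biology. The pro-inflammatory class held 5 genes (Nos2, Tnf, Il6, Il12b and Cd86) and the repair-type class held 5 (Arg1, Mrc1, Chil3, Retnla and Il10). All 10 were found by Entrez identifier among the 18089 genes of the table. Bulk RNA was sequenced from the gastrocnemius of male C57BL/6 mice, 3 WT and 3 Gpr174-/Y, aged 8 to 10 weeks. All 6 mice had the femoral artery ligated (hindlimb ischemia, HLI), and muscle was collected on day 7. Gpr174 is X-linked and encodes a G protein-coupled receptor, the deletion is present in every cell of the mouse, and neither an unligated muscle nor a sorted cell population was analysed here. Nothing in the labels names a sequencing batch or says that a library pools animals.

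Macrophages that enter injured muscle first clear debris and release inflammatory cytokines, and later populations favour regeneration and matrix repair. Lipopolysaccharide and interferon gamma induce the classical program, in which nitric oxide synthase uses arginine, whereas interleukin-4 and interleukin-13 induce the alternative program, in which arginase uses the same amino acid. In tissue these programs overlap, and several of the markers are also made by cells other than macrophages.

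In the Gpr174-/Y muscles markers of both classes moved, and within each class they moved in both directions. Arg1, Chil3 and Mrc1 of the repair-type class and Tnf and Il6 of the pro-inflammatory class were higher, by 1.45-fold (Mrc1) to 5.20-fold (Chil3). Nos2 and Retnla were lower, at 0.498 and 0.464 of the WT level. Il12b, Cd86 and Il10 did not pass the test. The adjusted p was under 0.05 (edgeR's quasi-likelihood test with Benjamini-Hochberg adjustment, n = 3 in each group) for 3 of 5 pro-inflammatory and 4 of 5 repair-type markers, together 7 of 10, where 54.6% of the 14395 tested genes passed. Of the 7, 5 were higher and 2 were lower, where 27.0% of the tested genes were higher and 27.6% were lower. Of the 5 higher calls 4 (Tnf, Il6, Arg1 and Chil3) belonged to markers that met the filter on low counts in fewer than 3 WT libraries, so this tally is a description only. Without that filter 7 of the 10 markers also passed, 5 higher and 2 lower, where 43.9% of 18053 genes did. The median log2 fold change was 0.28 for the pro-inflammatory markers and 0.54 for the repair-type markers, against 0.004 for all tested genes. These medians include the markers that met the filter in fewer than 3 WT libraries, so they too are a description only. With an absolute log2 fold change over 1 required as well, 5 markers passed (Nos2, Il6, Arg1, Chil3 and Retnla), where 8.28% of the tested genes did.

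Library totals ranged from 18417111 to 19394504 counts, and 3 counts, the smallest number taken as detectable, were 0.155 to 0.163 CPM (counts scaled to library size), a limit that covers counting error only. The targeted gene, Gpr174, had 8, 2 and 5 counts in the WT libraries and 1, 0 and 0 in the Gpr174-/Y libraries. In 86.1% of 3675 abundant genes WT replicate 2 lay between WT replicates 1 and 3 (77.1% for Gpr174-/Y), where libraries that take the middle place equally often would give 33.3%, and genes are not independent of each other. Whether replicate 2 is a separate library was not tested. Every p-value and SD given here takes n as 3 in each group, and none would hold as given if replicate 2 is not separate. Among the 10 markers WT replicate 2 lay between the others in 8, and WT replicate 3 was the WT library nearest the Gpr174-/Y mean in 9 (all but Il12b). With replicates 1 and 3 of each group alone, edgeR gave 0 of 10 markers and no gene of the table an adjusted p under 0.05. Of the 10 markers 6 had an unadjusted p under 0.05, but the share of all genes under it was not counted, so this is a description only. With replicates 1 and 2 of each group alone, 8 markers and 63.3% of all tested genes had an adjusted p under 0.05 in edgeR. With replicates 2 and 3 alone it was 5 markers and 41.2%. The cause of this difference between subsets was not tested.

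The 250 bases before the transcription start are shown for the 5 markers that passed the test and have a promoter entry, so that the letters can be read beside the values that follow. They are RefSeq sequences on GRCm38.p6, written 5′ to 3′ along the gene, and capitals mark matches, on either strand, to 8 motif spellings of factors or elements used by these programs. These were STAT6 (TTCNNNNGAA), the interferon gamma-activated site or GAS (TTCNNNGAA), the interferon-stimulated element or ISRE (GAAANNGAAA), NF-kB (GGGANNNTCC), C/EBP (TTGCNNAA), AP-1 (TGANTCA), PU.1 (GAGGAA) and the TATA box (TATAAA).
Tnf (chr17:35202008-35202257, - strand): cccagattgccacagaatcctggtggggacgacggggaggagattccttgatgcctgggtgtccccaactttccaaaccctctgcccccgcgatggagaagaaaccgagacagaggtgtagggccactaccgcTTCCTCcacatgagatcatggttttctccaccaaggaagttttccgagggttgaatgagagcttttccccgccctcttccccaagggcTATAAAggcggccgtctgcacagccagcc
Il6 (chr5:30012864-30013113, + strand): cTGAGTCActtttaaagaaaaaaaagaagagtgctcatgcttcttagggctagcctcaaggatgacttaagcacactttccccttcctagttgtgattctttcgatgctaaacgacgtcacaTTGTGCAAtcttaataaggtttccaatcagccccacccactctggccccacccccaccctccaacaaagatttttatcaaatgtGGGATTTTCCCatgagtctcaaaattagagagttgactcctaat
Mrc1 (chr2:14229164-14229413, + strand): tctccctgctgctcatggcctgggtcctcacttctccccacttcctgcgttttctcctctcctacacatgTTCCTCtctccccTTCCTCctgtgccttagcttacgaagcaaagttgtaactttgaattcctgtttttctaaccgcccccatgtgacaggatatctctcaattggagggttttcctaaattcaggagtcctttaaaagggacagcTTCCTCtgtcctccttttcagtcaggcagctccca
Chil3 (chr3:106167565-106167814, - strand): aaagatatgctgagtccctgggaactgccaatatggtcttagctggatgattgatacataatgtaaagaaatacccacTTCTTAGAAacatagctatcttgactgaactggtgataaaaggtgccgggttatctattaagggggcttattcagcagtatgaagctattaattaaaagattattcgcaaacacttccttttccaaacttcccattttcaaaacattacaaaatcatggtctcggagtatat
Retnla (chr16:48842359-48842608, + strand): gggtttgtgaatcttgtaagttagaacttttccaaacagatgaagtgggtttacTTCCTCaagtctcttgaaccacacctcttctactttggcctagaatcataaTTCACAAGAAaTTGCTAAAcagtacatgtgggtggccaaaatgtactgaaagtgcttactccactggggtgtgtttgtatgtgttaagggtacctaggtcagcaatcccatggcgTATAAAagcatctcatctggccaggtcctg
Il6 held an NF-kB match beginning 44 bases before the start, a C/EBP match at 128 and an AP-1 match at 249. The NF-kB match overlaps a match to the same letters on the other strand, which begins 43 bases before the start. Chil3 held a GAS match at 172. Retnla held a STAT6 match at 145, a C/EBP match at 134, a PU.1 match at 196 and TATAAA at 30. Tnf held a PU.1 match at 117 and TATAAA at 29, and Mrc1 held PU.1 matches at 180, 167 and 35. Of 32536 distinct mouse promoters of the same length, 5.89% held the STAT6 letters, 7.04% GAS, 2.98% ISRE, 3.87% NF-kB, 9.57% C/EBP, 6.73% AP-1, 23.4% PU.1 and 12.3% TATAAA. Among these 5 promoters, genes that were higher (Il6) and lower (Retnla) both held C/EBP letters, and a match describes letters, not binding.

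Nos2 encodes inducible nitric oxide synthase, the arginine-consuming enzyme of the classical program. Its counts were 362, 333 and 239 in the WT libraries and 188, 195 and 205 in the Gpr174-/Y libraries, given here and in what follows in the order of replicates 1, 2 and 3. Every WT library was above every Gpr174-/Y library. After scaling by edgeR's TMM method the level was 18.6 CPM ± 4.67 (SD, n = 3) in WT and 9.23 ± 0.279 in Gpr174-/Y muscles, a log2 fold change of -1.01 (standard error 0.18, adjusted p = 0.00436). Arg1 encodes arginase-1, which turns arginine into ornithine and urea. Its counts were 5, 9 and 15 in WT and 52, 52 and 70 in Gpr174-/Y libraries, so that the lowest Gpr174-/Y count was well above the highest WT count. The level was 0.563 CPM ± 0.267 in WT and 2.73 ± 0.456 in Gpr174-/Y muscles (log2 fold change 2.24, standard error 0.30, adjusted p = 0.00165). Both calls held with each library left out in turn. With replicates 1 and 3 of each group alone, neither passed edgeR's test (adjusted p = 0.0781 for Nos2 and 0.0549 for Arg1).

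The ratio of the competing enzymes does not depend on the scaling of the libraries. There were 72.4, 37.0 and 15.9 Nos2 counts per Arg1 count in the WT libraries and 3.62, 3.75 and 2.93 in the Gpr174-/Y libraries. Nos2 counts exceeded Arg1 counts in all 6 libraries, and the groups did not overlap. The WT ratios differed among themselves far more than the Gpr174-/Y ratios. The log2 ratio of Arg1 to Nos2 counts was -5.04 ± 1.05 (SD, n = 3) in WT and -1.76 ± 0.19 in Gpr174-/Y, a difference of 3.28 (2-sided exact permutation test, p = 0.1, the smallest that 3 samples against 3 allow).

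**Figure D1:**
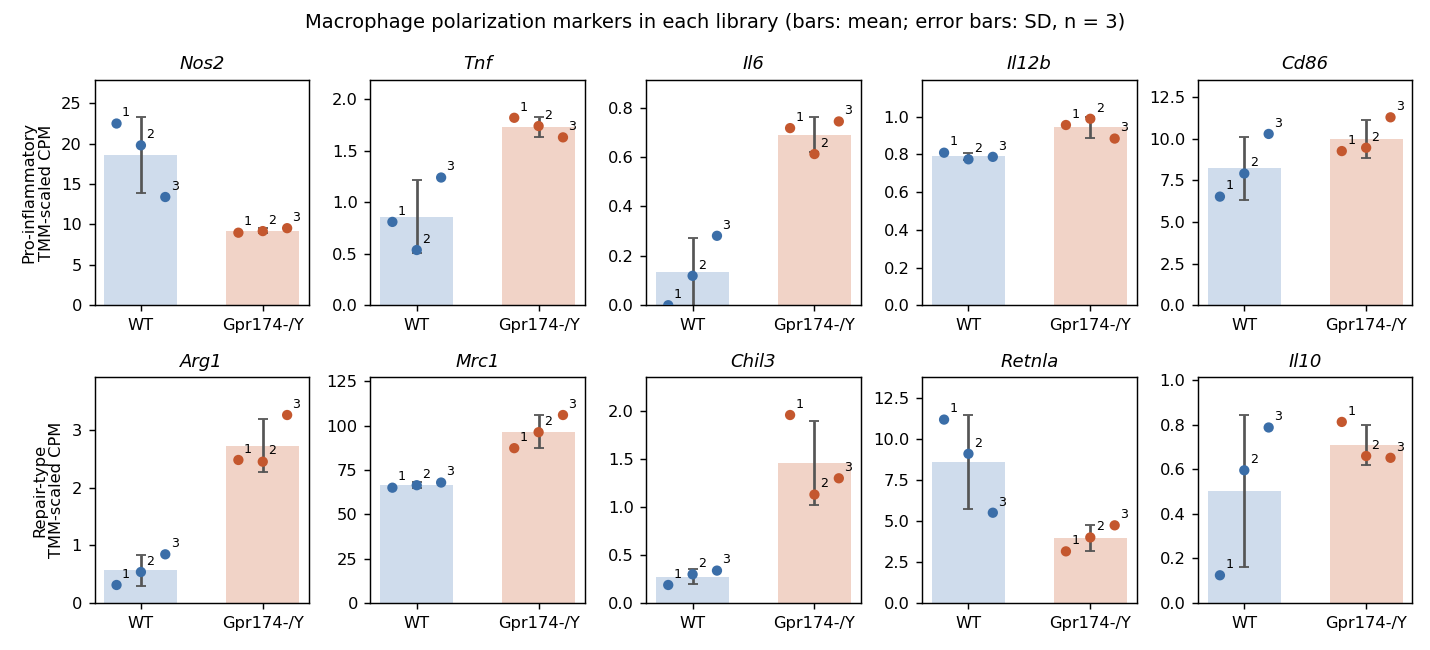
TMM-scaled CPM of the 10 markers in each library (points, numbered by replicate), with bars for the mean and error bars for the SD (n = 3), pro-inflammatory markers in the upper row and repair-type markers in the lower row. The groups stand apart for 8 markers, with Nos2 and Retnla lower in Gpr174-/Y, and overlap for Cd86 and Il10 (the Il6 error bar in WT runs below the axis).

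Among the cytokines, Tnf and Il6 were higher, and neither Il12b nor Il10 passed the test. Tnf encodes tumor necrosis factor. It had 13, 9 and 22 counts in WT and 38, 37 and 35 in Gpr174-/Y libraries, with no overlap. The level was 0.860 CPM ± 0.353 and 1.73 ± 0.0947 (log2 fold change 0.99, standard error 0.27, adjusted p = 0.0189). Il6 encodes interleukin-6, which muscle fibres and fibroblasts also release, and its counts were 0, 2 and 5 in WT and 15, 13 and 16 in Gpr174-/Y libraries. The groups stood apart, but 2 of the WT libraries were under 3 counts. The level was 0.133 CPM ± 0.141 and 0.691 ± 0.0697 (log2 fold change 2.27, standard error 0.57, adjusted p = 0.0141). Both calls were lost without single libraries. Without WT replicate 2 the adjusted p was 0.0566 for Tnf and 0.0595 for Il6. For Tnf it was also 0.0584 without Gpr174-/Y replicate 1 and 0.0630 without Gpr174-/Y replicate 2. Without WT replicate 3, the WT library with the most Il6 counts, the Il6 log2 fold change was 3.38.

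Il12b encodes the p40 subunit shared by interleukin-12 and interleukin-23. It had 13, 13 and 14 counts in WT and 20, 21 and 19 in Gpr174-/Y libraries. The groups did not overlap, but the levels were close, at 0.790 CPM ± 0.0178 and 0.943 ± 0.0538, and the log2 fold change of 0.25 did not pass the test (standard error 0.17, adjusted p = 0.458). Il10 encodes interleukin-10, an anti-inflammatory cytokine that regulatory T cells also secrete. Its counts were 2, 10 and 14 in WT and 17, 14 and 14 in Gpr174-/Y libraries, and the groups overlapped in CPM. The level was 0.502 CPM ± 0.341 and 0.708 ± 0.0908 (log2 fold change 0.46, standard error 0.47, adjusted p = 0.435). WT replicate 1 alone was low, and without it the Il10 log2 fold change was 0.04.

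The surface receptors differed from each other. Mrc1 encodes the mannose receptor CD206, an endocytic lectin. It had 1045, 1116 and 1209 counts in WT and 1827, 2044 and 2278 in Gpr174-/Y libraries, with no overlap. The level was 66.5 CPM ± 1.46 and 96.5 ± 9.33, the smallest fold change among the markers that passed (log2 fold change 0.54, standard error 0.08, adjusted p = 0.00193). Cd86 encodes a ligand for the T cell molecules CD28 and CTLA-4. Its counts were 105, 133 and 183 in WT and 194, 201 and 244 in Gpr174-/Y libraries, and in CPM WT replicate 3 (10.3) lay above Gpr174-/Y replicates 1 and 2 (9.27 and 9.47). The level was 8.24 CPM ± 1.90 and 10.03 ± 1.15 (log2 fold change 0.28, standard error 0.17, adjusted p = 0.208). Without WT replicate 3 the Cd86 log2 fold change was 0.48 and the adjusted p was 0.0146. With total counts in place of TMM it was 0.55, with an adjusted p of 0.0472.

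The table splits Cd86 between a curated RefSeq transcript and a predicted one. The predicted transcript was assigned 38.7%, 19.3% and 6.16% of the Cd86 counts in the WT libraries and 77.9%, 57.3% and 56.0% in the Gpr174-/Y libraries. The groups did not overlap (difference 42.3 percentage points, 2-sided exact permutation test, p = 0.1, the smallest possible). The counts assigned to the curated transcript were, to within 0.01, 3, 5, 8, 2, 4 and 5 times 21.46 in the same order of libraries. The estimated split thus moved in steps of 21.46 counts, and its error is not given in the table.

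Chil3 and Retnla encode secreted proteins, a chitinase-like lectin (Ym1) and a resistin-like molecule (RELMα or Fizz1), that serve as markers of the alternative program in mice. Chil3 was also on the list of monocyte markers used below, and was not counted there. Chil3 and Retnla moved in opposite directions. Chil3 had 3, 5 and 6 counts in WT and 41, 24 and 28 in Gpr174-/Y libraries, with no overlap. The level was 0.274 CPM ± 0.0780 and 1.46 ± 0.437 (log2 fold change 2.38, standard error 0.35, adjusted p = 0.00225). Retnla had 180, 153 and 98 counts in WT and 66, 85 and 102 in Gpr174-/Y libraries. The raw counts overlapped and the TMM-scaled values did not, with the lowest WT library at 5.51 CPM and the highest Gpr174-/Y library at 4.74. The level was 8.60 CPM ± 2.88 and 3.97 ± 0.796 (log2 fold change -1.11, standard error 0.28, adjusted p = 0.0141). The adjusted p for Retnla was 0.0519 without WT replicate 2 and 0.0526 without Gpr174-/Y replicate 1.

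In TMM-scaled CPM the groups did not overlap for 8 of 10 markers, 6 higher and 2 lower in Gpr174-/Y, where 65.6% of the tested genes did not overlap (33.1% higher, 32.5% lower). All 10 markers passed the filter on low counts, which asked for 0.528 CPM, taken before TMM scaling, in 3 libraries. Il6 and Chil3 reached this in no WT library (0 of 3), Arg1 in 1, and Tnf and Il10 in 2, so these 5 markers were tested only through their Gpr174-/Y libraries, and the tally over markers gives no support beyond the values of each. Of the other 5, Mrc1 was higher, Nos2 and Retnla were lower, and Il12b and Cd86 did not pass.

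Levels of different markers were compared per transcript length, in the deposited TPM, which scale each transcript by its length and each library to the same total. In WT muscle Retnla (29.5 TPM ± 8.54, SD, n = 3) and Mrc1 (21.6 ± 1.56) were the highest, and their libraries overlapped. Nos2 (8.37 ± 1.74) and Cd86 (5.76 ± 1.57) followed and also overlapped. Tnf (0.937 ± 0.417), Il10 (0.697 ± 0.493), Arg1 (0.687 ± 0.352) and Il12b (0.550 ± 0.0265) were near each other, each overlapping the next. Chil3 (0.317 ± 0.107) and Il6 (0.220 ± 0.231) were the lowest and overlapped. In Gpr174-/Y muscle Mrc1 (41.1 TPM ± 5.36) came before Retnla (18.2 ± 4.24), with no overlap. Cd86 (9.32 ± 1.34) stood above Nos2 (5.50 ± 0.354), and the Nos2 libraries overlapped those of Arg1 (4.30 ± 0.858). Tnf (2.41 ± 0.0503) and Chil3 (2.19 ± 0.596) overlapped, as did Il6 (1.42 ± 0.165) and Il10 (1.26 ± 0.125), and Il12b (0.860 ± 0.0346) was the lowest. In TPM the groups stood apart, higher in Gpr174-/Y, for Cd86 and Il10 as well, and overlapped for Retnla.

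The pan-macrophage marker list rose in the same libraries. Of 18 markers 16 were higher and 0 were lower in Gpr174-/Y (median log2 fold change 0.84, against 0.004 for all tested genes), where 27.0% of all tested genes were higher. Among them Adgre1, which encodes F4/80, had a log2 fold change of 0.84, Cd68, a lysosomal glycoprotein, 1.22, Itgam, the integrin CD11b, 1.60, and Csf1r, the receptor for the macrophage growth factor CSF1, 0.77. The summed level of the list was 2100 to 3500 CPM in WT and 5030 to 5250 CPM in Gpr174-/Y libraries. The resident macrophage list did not rise in the same way. Of its 5 tested markers 2 were higher and 1 was lower, with a median of -0.31. Mature muscle fibre markers fell in 20 of 20 cases (median -1.43), from 153000 to 218000 CPM in WT to 68900 to 76900 CPM in Gpr174-/Y libraries, or from 14.5 to 19.1% of all counts to 7.72 to 8.30%. No marker of these lists was at 0 in every library. The part of these differences in the polarization results was not tested, and in bulk tissue a different number of cells of a type and a different amount of RNA per cell cannot be told apart.

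**Figure D2:**
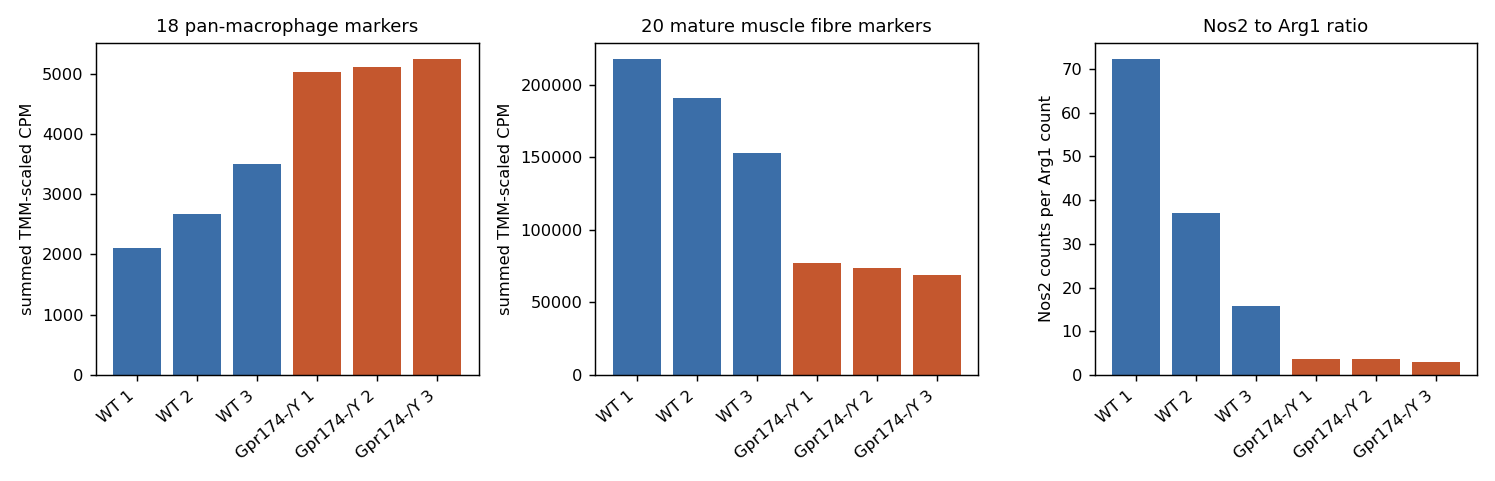
Summed TMM-scaled CPM of 18 pan-macrophage markers and of 20 mature muscle fibre markers, and Nos2 counts per Arg1 count, with 1 bar per library. Pan-macrophage markers are higher and fibre markers lower in every Gpr174-/Y library, and the ratio is 15.9 to 72.4 in WT and 2.93 to 3.75 in Gpr174-/Y.

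Each marker was also expressed per 100000 counts of the 18 pan-macrophage genes, which sets it against the macrophage transcripts of the same library. Arg1 was then 14.8, 20.1 and 24.1 in WT and 49.4, 47.9 and 62.0 in Gpr174-/Y libraries. Chil3 was 8.89, 11.1 and 9.62 against 38.9, 22.1 and 24.8, and Il6 was 0, 4.46 and 8.02 against 14.2, 12 and 14.2. These 3 markers were higher in every Gpr174-/Y library, with log2 differences of 1.38 for Arg1, 1.36 for Chil3 and 1.73 for Il6. Nos2 was 1070, 742 and 383 against 179, 180 and 182, and Retnla was 534, 341 and 157 against 62.7, 78.3 and 90.4. Cd86 was 311, 296 and 293 against 184, 185 and 216, and Il12b was 38.5, 29.0 and 22.5 against 19.0, 19.3 and 16.8. These 4 markers were lower in every Gpr174-/Y library, with log2 differences of -1.90 for Nos2, -2.00 for Retnla, -0.63 for Cd86 and -0.69 for Il12b. Each of the 7 had p = 0.1 in a 2-sided exact permutation test, the smallest possible, and 0.143 after Benjamini-Hochberg adjustment over the 10 markers. Mrc1 (p = 0.2), Tnf (p = 0.9) and Il10 (p = 0.8) overlapped between the groups in the same exact test. The share of all tested genes without overlap was not computed for these ratios, so the counts of 3 higher and 4 lower markers are a description only. With the same scaling in edgeR 81.1% of all tested genes were called lower, with a median log2 fold change of -0.945. The falls of Cd86 and Il12b were smaller than that median, so they are not particular to these markers.

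The sign of 4 markers thus depended on what they were scaled to. With pan-macrophage scaling in edgeR the log2 fold changes of Il12b, Cd86, Mrc1 and Il10 were -0.65, -0.62, -0.42 and -0.38, all positive under TMM, and the median of all tested genes was -0.945. Cd86 passed the test as lower there (adjusted p = 0.012), and 6 markers passed in all, 3 higher and 3 lower, where 1.13% of all tested genes were higher and 81.1% were lower. Nos2 (-2.02) and Retnla (-2.13) stayed lower, and Arg1 (1.38), Chil3 (1.51) and Il6 (1.43) stayed higher. Tnf was 0.11 (adjusted p = 0.735). Under total-count scaling, where the median of all tested genes was 0.277, no sign differed from TMM.

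**Figure D3:**
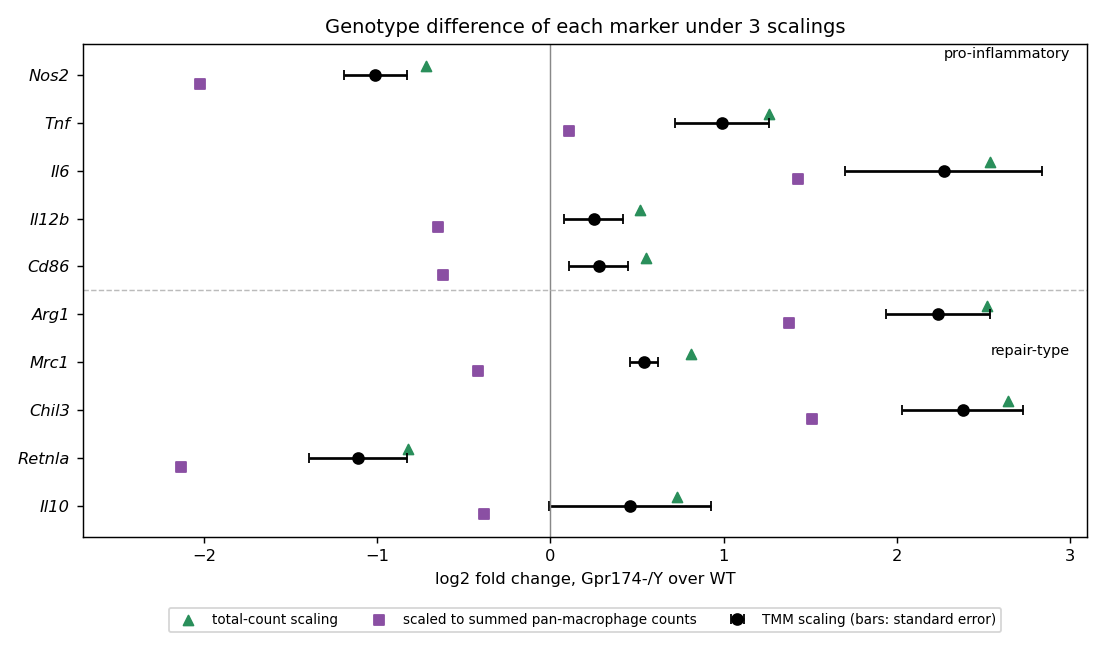
Log2 fold change (Gpr174-/Y over WT) of each marker under TMM scaling (circles, bars are standard errors), total counts (triangles) and scaling to summed pan-macrophage counts (squares). Il12b, Cd86, Mrc1 and Il10 lie on opposite sides of 0 under TMM and pan-macrophage scaling, and the other 6 do not.

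Other genes of the classical program that are not among the markers were higher in 6 (28.6%) and lower in 1 (4.76%) of 21 tested, with a median log2 fold change of 0.22. The share that was higher was thus near the 27.0% of all tested genes, and the shares in the lists that follow are likewise to be read against 27.0% higher and 27.6% lower. Socs3, a feedback inhibitor of cytokine signalling, rose by 1.69 (standard error 0.18, adjusted p = 0.00102), Il1b, encoding interleukin-1β, by 1.34, and Il18 by 0.78. Il1a fell by 0.80. The interferon-induced chemokine genes Cxcl9 and Cxcl10 did not pass, at -0.01 and 1.14 (adjusted p = 0.982 and 0.0567). Their WT libraries were spread widely, from 328 to 1173 counts for Cxcl9 and from 100 to 465 for Cxcl10.

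Of the other alternative activation genes, 9 of 22 tested (40.9%) were higher and 3 (13.6%) were lower, with a median of -0.04. Il1rn, which encodes the antagonist of the interleukin-1 receptor, rose by 2.37 (standard error 0.48, adjusted p = 0.00648), and had 11, 40 and 96 counts in WT and 252, 328 and 365 in Gpr174-/Y libraries. The scavenger receptor gene Msr1 rose by 1.64, Gpnmb, a glycoprotein of lipid-laden phagocytes, by 1.62, and the transcription factor gene Egr2 by 0.64. The transcription factor gene Klf4 fell by 0.97, the lectin gene Cd209a by 0.92 and the fatty acid receptor gene Cd36 by 0.38. The lectin genes Clec10a (-0.33, adjusted p = 0.0622) and Mgl2 (-0.29, adjusted p = 0.316) did not pass. As among the markers, genes of the alternative program moved in both directions. Cd209a also belongs to the dendritic cell markers, of which 5 of 8 were lower, and the part of other cell types in these changes was not tested.

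In arginine metabolism, the pathway in which Nos2 and Arg1 compete, 8 of 15 tested genes (53.3%) were higher and 2 (13.3%) were lower, with a median of 0.26. Ass1, which makes the arginine precursor argininosuccinate from citrulline, rose by 1.36 (standard error 0.35, adjusted p = 0.0153). Gatm, the first enzyme of creatine synthesis, rose by 1.18, Ddah1, which degrades methylated arginines, by 1.02, and the arginine transporter gene Slc7a2 by 0.30. Nos3, the endothelial nitric oxide synthase gene, fell by 0.81, and the spermine synthase gene Sms by 0.39. Of 9 endothelial markers 8 were lower and 1 was higher in the same libraries, and their part in the Nos3 result was not tested. Arg2, the other arginase gene, had 1, 4 and 3 counts in WT and 10, 7 and 2 in Gpr174-/Y libraries and was removed by the filter.

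Of the cytokine genes that set polarization 5 were tested, and 3 were higher, Csf1 by 0.60, Tgfb1 by 0.55 and Il33 by 0.53. The main inducers were near the limit of detection. Ifng had 1, 4 and 4 counts in WT and 3, 4 and 5 in Gpr174-/Y libraries, and Il4 had 1 count in WT replicate 1 and 0 in every other library. Among the receptors and partners of the markers 7 of 14 were higher and 2 (14.3%) were lower, with a median of 0.43. Il4ra, the signalling chain of the interleukin-4 and interleukin-13 receptors, rose by 1.29 (standard error 0.19, adjusted p = 0.00210). Il13ra1, its partner chain, rose by 0.81 and the tumor necrosis factor receptor gene Tnfrsf1b by 0.79. Il12rb2 fell by 0.49 and Ifngr2 by 0.32, chains of the interleukin-12 and interferon gamma receptors.

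Of 12 transcription factors of polarization 7 (58.3%) were higher and 1 (8.33%) was lower, with a median of 0.29. Bcl3, an atypical member of the IκB family, rose by 1.22, the hypoxia-inducible factor gene Hif1a by 0.91 and Irf8, a factor of myeloid development, by 0.54. Cebpb, a C/EBP family gene, fell by 0.49. Stat6, which carries the interleukin-4 signal, did not pass, at 0.11 (adjusted p = 0.0745). With pan-macrophage scaling the splits were 1 higher and 10 lower for the classical list, 3 and 15 for the alternative list, 1 and 9 for arginine metabolism, 0 and 2 for cytokines, 0 and 7 for receptors and 0 and 7 for transcription factors, where 1.13% of all tested genes were higher and 81.1% were lower. With total counts they were 8 and 0, 10 and 1, 11 and 1, 3 and 0, 10 and 0, and 10 and 0, where 50.7% were higher and 14.0% were lower. The direction of the splits followed that of all genes under pan-macrophage and total-count scaling. Under TMM, where 27.0% of all tested genes were higher and 27.6% were lower, each of these lists had more genes higher than lower.

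**Figure D4:**
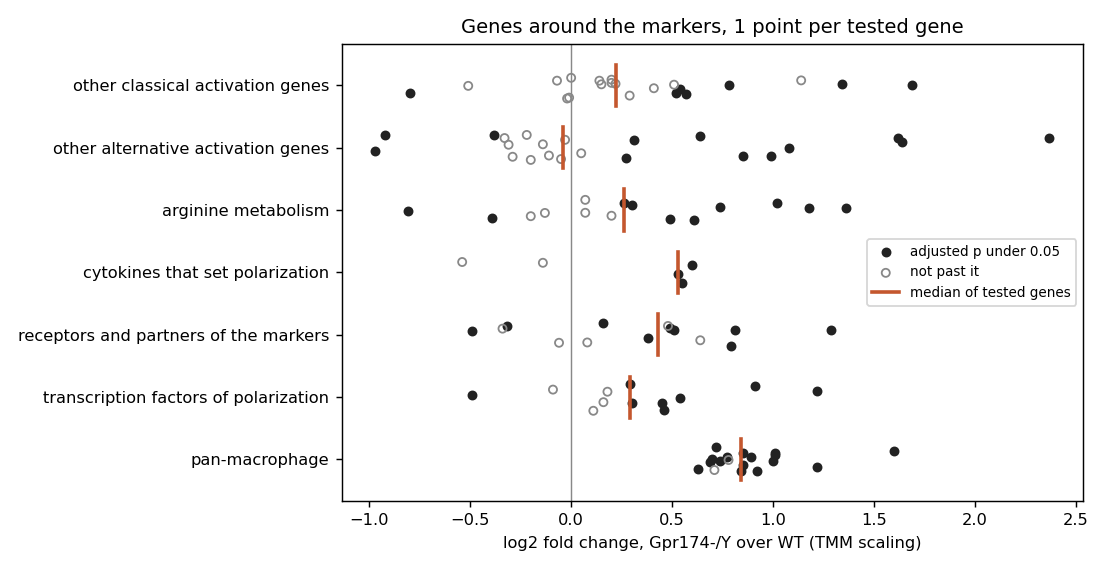
Log2 fold change (Gpr174-/Y over WT, TMM scaling) of every tested gene in 6 lists around the markers and in the pan-macrophage list, with filled points for an adjusted p under 0.05 and a vertical line at the median of each list. The alternative activation genes spread on both sides of 0 around a median of -0.04, and every pan-macrophage point lies above 0, with a median of 0.84.

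Markers of other leukocytes that can express these genes were examined in the same way. Of 6 monocyte markers 2 were higher and 0 were lower, among them Ccr2, the receptor for the chemokine CCL2, at 22.5 CPM in WT and 35.2 in Gpr174-/Y. Only 3 of 10 neutrophil markers passed the filter, of which 2 were higher and 1 was lower, and Ly6g, a defining marker, had a mean of 0 and 0.0155 CPM. Of 8 dendritic cell markers 5 were lower and 1 was higher. Of 6 tested T cell markers 0 were higher and 0 were lower in edgeR (median 0.30, range -0.19 to 0.65), 1 had an unadjusted p under 0.05, and with total counts 2 were higher. Among them Cd3e, a subunit of the T cell receptor complex, was at 0.995 CPM in WT and 0.862 in Gpr174-/Y (adjusted p = 0.664), and Cd8a, a coreceptor of cytotoxic T cells, had a log2 fold change of 0.65 (adjusted p = 0.0778). Foxp3, the defining factor of regulatory T cells, was at 0.588 and 0.361 CPM and was removed by the filter. Their part in the marker results was not tested.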

How the data were processed

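Ischemic gastrocnemius RNA of 3 WT and 3 Gpr174-/Y mice, grouped by the sample labels, was sequenced on a BGISEQ platform per the methods, while the labels name an Illumina library kit. The authors deposited expected counts for 58843 RefSeq transcripts (estimated reads per transcript, not normalized), FPKM (scaled by transcript length and library size) and TPM (scaled by length to a fixed total). The submitters' processing notes name HISAT2 2.0.4, Bowtie2 2.2.5, RSEM 1.2.12 and GRCm39, and strand use is not given in the sources used here. The authors' group means were not used, and their DEGseq test was replaced by one that uses the replicates.

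Expected counts were summed by Entrez identifier and rounded, giving 18089 genes (99.7% with a symbol). Genes were tested with edgeR 4.0.16 in R 4.3.3 (TMM, its filter on lowly counted genes, a robust quasi-likelihood test, Benjamini-Hochberg adjustment over 14395 genes, threshold 0.05). Counts near 10 or fewer limit the precision of Il6, Arg1, Chil3 and Il10. On simulated data for this comparison, 97.5% of 200 genes changed 2-fold were recovered among 14385 genes. The changed genes were drawn from those above a minimum mean count, and the simulated libraries were independent. This rate therefore does not cover the markers with low counts. As many genes were raised as lowered and the rest were left unchanged, so the rate does not cover the choice of scaling either. Log2 ratios used 0.5 added counts. Permutation tests used scipy 1.17.1. Promoters were matched by symbol for 6 of the 10 markers.

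The markers, gene lists and alternatives were chosen with earlier results of these data known. Within each list the genes named are up to 3 of the largest called changes in each direction, plus 16 genes named whatever they did, of which Il13 and Chil4 were not analysed here and 1 is not reported here. Ccr2, Ly6g, Cd3e, Cd8a and Foxp3 were picked later, with values in view. Alternatives were other scalings, DESeq2 1.42.0, limma 3.58.1 (voom, and log2(FPKM + 1) or log2(FPKM + 0.1)), other filters, a replicate block and subsets of libraries. P-values assume that the libraries are independent mice.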

Additional observations from a re-analysis of the deposited data

How the results depend on the processing

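Of 205 values over the 10 markers and their alternatives, 178 kept their direction and side of the threshold, 5 turned direction, 18 lost a call and 6 gained one (all Cd86, 5 higher and 1 lower). Under pan-macrophage scaling Mrc1 lost its call and Cd86 gained one while both turned. Pan-macrophage scaling turned Il12b (-0.65), Cd86 (-0.62), Mrc1 (-0.42) and Il10 (-0.38), and replicates 2 and 3 alone turned Il10 (-0.08). Requiring 10 counts in every library left 5 markers to test, of which 3 were called (1 pro-inflammatory, 2 repair-type, 1 higher and 2 lower), where 55.7% of all genes were. With each library left out in turn, 4 to 8 markers were called, 1 to 4 of them pro-inflammatory and 3 to 4 repair-type, with 4 without WT replicate 2 (37.5% of all genes called) and 8 without WT replicate 3 (62.8%). With replicates 1 and 3 alone edgeR called 0 markers, 0 in either class, and the lowest adjusted p was 0.0545. At an unadjusted p under 0.05 there were 6, of which 2 were pro-inflammatory and 4 repair-type, with no share of all genes counted beside them. With replicates 1 and 2 alone 8 markers were called (63.3% of all genes), and with replicates 2 and 3 alone 5 were (41.2%). The cause of the lost calls was not tested.

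Same-numbered WT and Gpr174-/Y libraries did not deviate together (correlations 0.001, -0.001 and -0.016), so the numbers were not taken to pair mice. With the replicate block 6 markers were called (5 higher, 1 lower), 3 of each class, and Retnla was lost (adjusted p = 0.0512). Of all genes 6809 were called with the block, against 7863 without (47.3% against 54.6%).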
